A study of Mus musculus with 14 samples.

Results

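The 31 genes described here encode the proteins of blood coagulation and of fibrinolysis, the breakdown of clots. They were taken by gene symbol from a list of the pathway, with no threshold on a measured value, out of the 22263 genes listed in the liver and kidney count tables together. By role, 16 are procoagulant, 8 are anticoagulant and 7 act in fibrinolysis or regulate it. All 31 have a row among the 19660 genes of the liver table. In the kidney table of 20203 genes, where each listed gene totals at least 10 counts, 27 have a row and F7, F9, F11 and F12 have none.

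Messenger RNA libraries were made with a SMARTer kit from total RNA of the liver and kidney of male mice aged 12 weeks that carry a human angiotensinogen transgene, the precursor of the blood pressure hormone angiotensin. Every mouse in all 4 groups carried the same transgene haplotype, Hap -6A, so the data hold no mice without it. Liver was taken on Normal Diet (4 libraries) and on high salt (4 libraries), and kidney on Normal Diet (3 libraries) and on high salt (3 libraries). The labels give neither the salt content nor the length of the diet, nor the mouse strain, nor whether libraries came from separate animals, so p-values measure the spread between these libraries only. In liver the normal diet libraries are called 1 to 4, and the high salt libraries HS5 to HS8 after their columns, whose numbers match no sample title.

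In coagulation, tissue factor (F3) binds factor VII, and a chain of plasma proteases then turns prothrombin (F2) into thrombin. Thrombin cuts fibrinogen, built from the chains of Fga, Fgb and Fgg, into the fibrin of a clot. Antithrombin, heparin cofactor II and the protein C pathway hold thrombin in check, and plasmin, made from plasminogen (Plg) by the activators Plat and Plau, dissolves fibrin. Hepatocytes secrete most of these proteins into plasma, while endothelial cells are known for von Willebrand factor, thrombomodulin and tissue plasminogen activator, and kidney tubules for urokinase. Fibrinogen is also an acute phase protein, made in larger amounts by the liver during inflammation.

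The fibrinogen genes are neighbours on chromosome 3 in mm10, and their promoter sequences are shown because the levels of the chains moved together between liver libraries. Fgg lies at chr3:83007724-83015049 (plus strand), Fga 11026 bases further on at chr3:83026076-83033627 (plus strand), and Fgb another 6513 bases on at chr3:83040141-83049863 (minus strand). The sequences below are the 250 bases upstream of the RefSeq start in GRCm38.p6, 5′ to 3′ on the strand of the gene. The RefSeq start of Fga lies downstream of the gene start in the files, so the last bases of its window lie inside the gene as given above. Capitals mark CTGGGAA, letters known from interleukin-6 response elements of acute phase genes.
Fga, chr3:83025903-83026152: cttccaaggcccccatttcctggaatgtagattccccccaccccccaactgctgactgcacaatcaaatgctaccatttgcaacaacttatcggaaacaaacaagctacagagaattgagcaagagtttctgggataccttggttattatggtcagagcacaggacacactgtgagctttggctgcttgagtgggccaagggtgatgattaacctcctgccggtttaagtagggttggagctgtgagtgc
Fgb, chr3:83049864-83050113: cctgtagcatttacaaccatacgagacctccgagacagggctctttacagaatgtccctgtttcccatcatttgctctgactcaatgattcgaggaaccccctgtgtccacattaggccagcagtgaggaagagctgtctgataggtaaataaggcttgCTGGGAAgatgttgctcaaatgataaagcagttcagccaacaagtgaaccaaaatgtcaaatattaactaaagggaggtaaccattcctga
Fgg, chr3:83007474-83007723: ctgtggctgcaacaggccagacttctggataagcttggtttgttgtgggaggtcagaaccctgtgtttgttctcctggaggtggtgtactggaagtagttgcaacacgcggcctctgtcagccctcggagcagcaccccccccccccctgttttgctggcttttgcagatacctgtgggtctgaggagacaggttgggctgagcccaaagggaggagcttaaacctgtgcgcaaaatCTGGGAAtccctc
CTGGGAA occurred 91 to 85 bases upstream of the Fgb start and 13 to 7 bases upstream of the Fgg start, and not in the Fga window. Searched on both strands, it was present in 9.10% of 32851 promoter windows of this length and in 4 of the 25 members that have a window, F9, Fgb, Fgg and Tfpi. The STAT-type letters TTCNNNGAA were in 7.02% of windows and in F9, Fga, Fgb and Pros1, and GTTAAT, letters found within HNF1 sites, was in 6.43% of windows and in F13b, Fga, Fgb, Habp2 and Proz. TATAAA was in 12.4% of windows and in Klkb1 and Tfpi. A match describes letters only.

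Liver libraries held 37267778 to 51487382 counts and kidney libraries 16046094 to 22004927. Several libraries stood apart. HS5 and HS6 were nearly alike: a chi-square comparison of 1892 genes gave 1.59 per gene for this pair, while the 11 other liver pairs within a diet gave 9.83 to 62.8, so liver counts are also given with both summed. Normal diet library 4 had a summed level of 7 acute phase genes of 61282 CPM (counts scaled to a common library size), against 2983 to 5618 in the other normal diet livers and 1672 to 2275 on high salt, and its neutrophil markers summed to 50.01 CPM against 1.32 or less in the 7 other livers. Mitochondrial transcripts took 2.30% and 2.06% of the counts in normal diet livers 1 and 2, against 11.3% to 29.6% in the other livers. Among kidney pairs within a diet the value was 4.19 for normal diet libraries 2 and 3. It was 48.3 and 48.2 for normal diet library 1 against libraries 2 and 3, and 11.3 to 18.3 for the high salt pairs. In kidney, normal diet library 2 had the highest level of 4 of 6 hepatocyte markers, with albumin (Alb) at 35.7 CPM. The liver label was checked on 6 hepatocyte markers, which summed to 46169 CPM or more in every liver and to no more than 112.5 CPM in any kidney. The kidney label was checked on 4 proximal tubule markers, at 1739 CPM or more in every kidney and 7.46 CPM or less in every liver.

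Most secreted members were liver transcripts, and the plasminogen activators and most surface receptors of the system were at higher levels in kidney. The normal diet livers and kidneys were compared with edgeR's quasi-likelihood test over 15688 genes, and a Benjamini-Hochberg adjusted p-value under 0.05 was called. Of the 27 members tested, 24 were called, where the test called 58.5% of all genes. Higher in liver were 17, by 2.61- to 4596-fold, where 30.0% of all genes were, and higher in kidney were 7, by 2.59- to 317-fold, where 28.5% of all genes were. The same 24 had an unadjusted p under 0.05 (63.4% of all genes) and were called by DESeq2 (61.2% of all genes), the tissues did not overlap for 23 (60.8% of all genes), and the log2 ratio was below 0 for 8 (48.3% of all genes). The median log2 ratio of liver to kidney was 3.22 over the members and 0.07 over all genes tested. A lower level in bulk RNA can come from fewer cells of a type or from less RNA per cell, which cannot be told apart.

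Levels in this comparison are CPM per kilobase of exon, with all 14 libraries scaled together. The length counts every annotated exon base of a gene, over all its transcripts, and can exceed that of the transcript made. Comparisons between genes depend on these lengths, while ratios between the tissues do not. Among the procoagulant genes, 8 of 12 were higher in liver and 2 in kidney. Plasminogen had the largest ratio among the 27 members tested, although it is the precursor of the clot-dissolving enzyme: 577, 549, 531 and 613 in liver libraries 1 to 4 and 0.0109, 0.296 and 0.0640 in kidney libraries 1 to 3 (log2 ratio 12.21, SE 1.03, edgeR adjusted p 7.01e-06). Prothrombin was at 421 ± 84.8 (SD, n = 4) in liver and 0.122 ± 0.0831 (SD, n = 3) in kidney. Fgb was at 833, 810, 625 and 1620 in liver and at 0.149, 0.451 and 0.125 in kidney, a 4024-fold ratio of means. Fga, its neighbour, was at 1014, 948, 679 and 1885 in liver and at 4.77, 3.01 and 2.67 in kidney, a 325-fold ratio. Kidney library 2 carried much of the kidney mean in several of these genes: without it the log2 ratio was 13.83 for Plg, 12.78 for Fgb, 12.44 for F2, 12.64 for F10 (11.58 with it) and 11.87 for Serpind1 (10.71 with it). The kidneys held all 3 fibrinogen chain transcripts, but in other proportions than the livers.

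**Figure D1:**
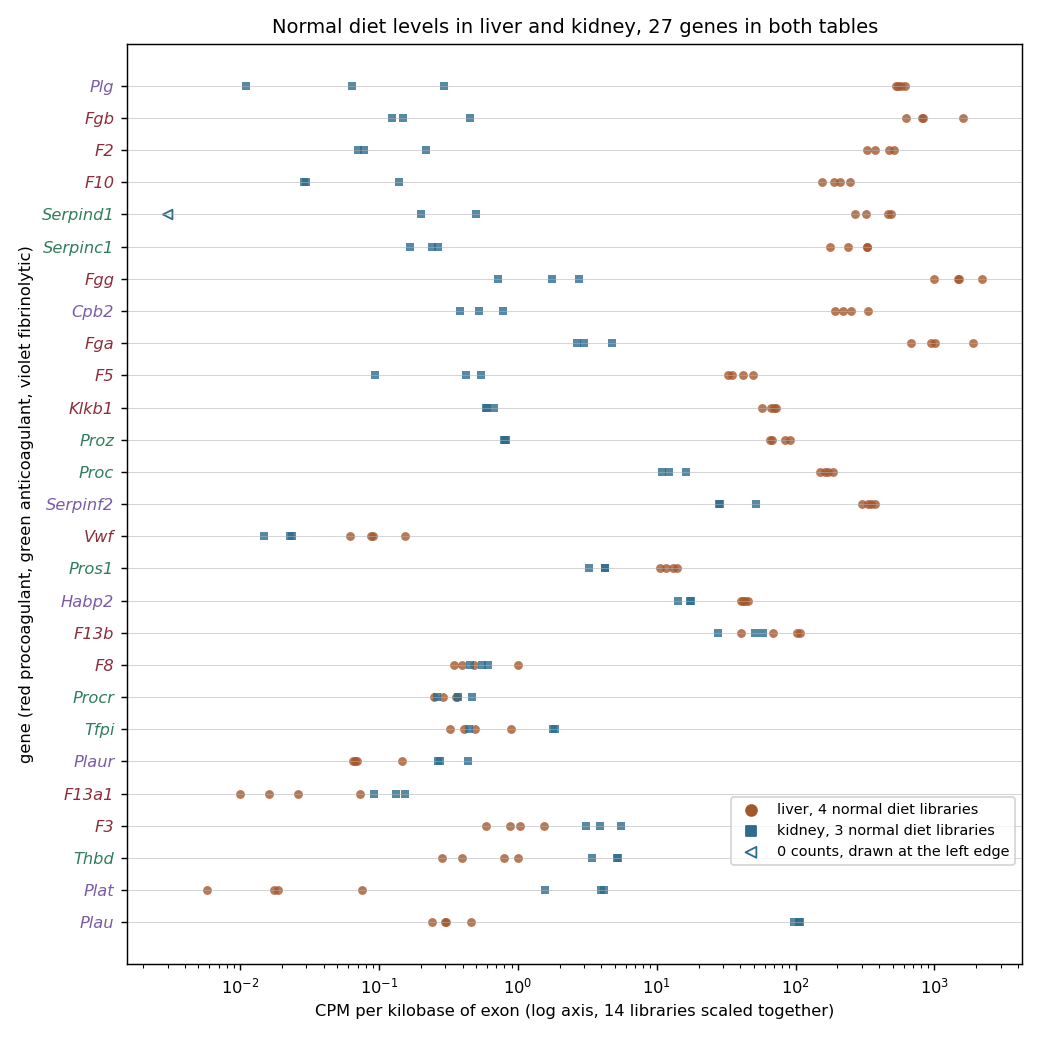
CPM per kilobase of exon (log axis) in each normal diet library of liver (circles, 4) and kidney (squares, 3) for the 27 genes present in both tables, ordered by the ratio of means. Plg, Fgb and F2 at the top are 4596-, 4024- and 3452-fold higher in liver, and Plau at the bottom is 317-fold higher in kidney.

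The share of each chain in the summed fibrinogen transcripts, per kilobase, was narrow in liver. Fga made up 29.0% to 33.1% over the 8 livers, Fgb 24.8% to 29.5% and Fgg 37.5% to 46.2%. In the 6 kidneys Fga made up 48.4% to 84.6%, Fgb 0.567% to 7.25% and Fgg 12.8% to 44.3%. No kidney share of Fga or Fgb fell inside the liver range. The chains, which are assembled in equal numbers into fibrinogen, had unequal shares on this scale in both tissues, and more so in kidney. In liver the inequality depends on the exon lengths used, 3010 bases for Fga, 3810 for Fgb and 2093 for Fgg. The CPM before division by length, given below, were nearly equal between the chains in normal diet liver 1. The kidney counts of Fgb were 3 to 36 per library. Exons of Fgg overlap those of Gm30097 on the other strand, and the strand of counting is not given in the sources used here.

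The activators of plasminogen were the members with the largest ratios toward kidney. Plau, urokinase (chr14:20836660-20843385, plus strand), was at 0.457, 0.299, 0.306 and 0.241 CPM per kilobase in the livers and at 107, 97.3 and 106 in the kidneys, 317-fold higher in kidney (log2 liver to kidney ratio -8.31, SE 0.32, edgeR adjusted p 1.37e-07). Plat, tissue plasminogen activator, was at 0.0294 ± 0.0313 (SD, n = 4) in liver and 3.25 ± 1.46 (SD, n = 3) in kidney, 110-fold higher. Plaur, the receptor that holds urokinase on the cell surface, was 3.75-fold higher in kidney, at 0.325 against 0.0865. The substrate of these activators and their main inhibitors in plasma lay on the liver side: Cpb2, the carboxypeptidase that makes fibrin resistant to plasmin, was 444-fold higher in liver, and Serpinf2, alpha2-antiplasmin, 9.44-fold. Habp2, a protease of plasma that binds hyaluronan, was 2.61-fold higher in liver, at 42.9 against 16.4, the smallest ratio among the members higher in liver.

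Thrombomodulin (Thbd), which turns thrombin toward protein C, was at 0.283, 0.398, 0.797 and 1.00 CPM per kilobase in liver and at 3.41, 5.20 and 5.26 in kidney, 7.46-fold higher in kidney. Tissue factor (F3), the trigger of coagulation, was at 1.03, 1.55, 0.587 and 0.872 in liver and at 3.12, 5.49 and 3.90 in kidney, 4.14-fold higher. In both genes every kidney was above every liver. Tfpi, the inhibitor of tissue factor, was 2.59-fold higher in kidney on means, but kidney library 1, at 0.446, lay within the liver range of 0.326 to 0.888. F13a1, the transglutaminase subunit that crosslinks fibrin, was 4.03-fold higher in kidney at levels of 0.153 or less in all normal diet libraries.

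Von Willebrand factor (Vwf), the carrier of factor VIII made by endothelium, went the other way. It was at 0.0619, 0.0902, 0.153 and 0.0880 CPM per kilobase in liver and 0.0228, 0.0237 and 0.0148 in kidney, 4.81-fold higher in liver (log2 ratio 2.26, SE 0.49, edgeR adjusted p 0.003). The summed level of 7 endothelial markers was nevertheless larger in kidney: 146.2 to 204.4 CPM in normal diet kidneys and 32.8 to 81.2 CPM in normal diet livers, each tissue scaled on its own. The kidney counts of Vwf were 6 to 9 in the normal diet libraries.

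Members that were not called between the tissues were F8, F13b and Procr. F13b, the carrier subunit of factor XIII, was at 101.9, 107, 68.4 and 40.8 in liver and 27.6, 58.4 and 51.2 in kidney, so that kidney levels reached the liver range (log2 ratio 0.79, SE 0.37, edgeR adjusted p 0.0945). F8 was at 0.558 and 0.537 on average, and the sign of its ratio changed with the scaling. Procr, the endothelial receptor of protein C, was at 0.314 in liver and 0.367 in kidney.

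Among the anticoagulant genes, 5 of 8 were higher in liver, but by very different folds. Antithrombin (Serpinc1) was 1199-fold higher and heparin cofactor II (Serpind1) 1649-fold, whereas protein C (Proc) was 12.7-fold higher and protein S (Pros1) 3.16-fold. Proc was at 185, 163, 150 and 172 in liver and at 16.4, 10.9 and 12.3 in kidney. Genes side by side also differed: F10 and Proz lie 4237 bases apart on chromosome 8, and F10 was 3012-fold and Proz 95.4-fold higher in liver. F7, 1498 bases before F10, is listed in the liver table at 67.7 to 96.5 CPM on normal diet and not in the kidney table. The authors' normalized kidney values list F9 at 0 to 5.71, above 0 in 3 of 6 libraries, and F12 at 0 to 3.50, above 0 in 1.

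Traces of liver-type transcripts differed between kidney libraries. Set against the mean normal diet liver, kidney library 2 held Alb at 0.0556%, Cps1 at 0.0864% and Apoa1 at 0.0300%, and each of these markers, like Tat, was highest in that library. The other 2 of the 6 hepatocyte markers peaked elsewhere, Ttr in high salt kidney 1 at 90.3 CPM, against 30.3 CPM in normal diet kidney 2, and Apoh in high salt kidney 3 at 20.8 CPM, against 6.68 CPM. In the same library F2 stood at 0.0517%, Plg at 0.0521%, Fgb at 0.0463%, F10 at 0.0701% and Serpind1 at 0.130% of liver, and each was again at its highest there. Kidney library 2 was the highest of the 6 kidneys for 11 of the 27 members, against 1 to 5 members in each other kidney. The 11 also hold F5, Fgg, F13b, Pros1, Tfpi and Plaur, and of these Tfpi and Plaur were at higher levels in kidney than in liver. The share of all genes that were highest in kidney library 2 was not counted. Fga was highest in normal diet kidney 1 instead, at 0.421% of liver, and stood at 0.266% in kidney 2. Klkb1 at 0.650% to 1.01%, Proz at 1.04% to 1.42% and Cpb2 at 0.153% to 0.312% of liver also did not peak in kidney 2. The part of liver-type RNA in the kidney levels of F2, F10, Fgb, Plg and Serpind1 was not tested.

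**Figure D2:**
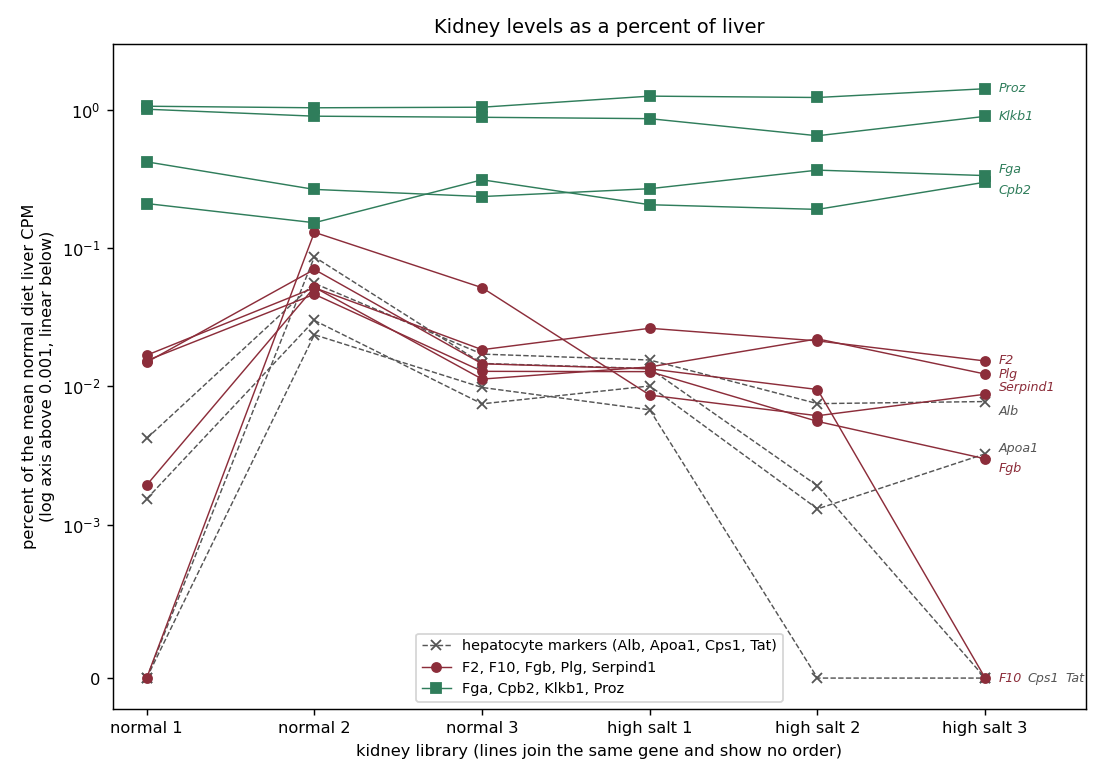
CPM of each of the 6 kidney libraries as a percent of the mean normal diet liver (log axis above 0.001%, linear below), with hepatocyte markers as dashed lines. F2, F10, Fgb, Plg and Serpind1 peak in normal diet kidney 2 together with Alb, Apoa1, Cps1 and Tat, while Fga, Cpb2, Klkb1 and Proz lie above 0.1% in every kidney and do not peak there.

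In liver, most coagulation genes were at a lower level on high salt, with no member past the threshold. High salt was compared with normal diet over 15130 genes by edgeR's quasi-likelihood test. Of 28 members tested (F13a1, Plat and Plaur were under the filter on low counts), 0 had an adjusted p under 0.05, where 1.00% of all genes did (0.595% higher, 0.410% lower), and 11 had an unadjusted p under 0.05, where 21.2% of all genes did. Of these 11, 9 were lower on high salt, where 11.3% of all genes were, and 2 were higher, where 9.83% were. DESeq2 called 8 of the 28, where it called 7.42% of all genes. The diets did not overlap for 13 members, where 12.5% of all genes did not: 11 were lower (background 6.05%) and 2 higher (background 6.44%). The log2 fold change was below 0 for 19 of 28, where it was for 52.0% of all genes, and its median was -0.41 over the members and -0.02 over all genes tested. The summed level of 6 hepatocyte markers did not overlap between the diets either, at 46169 to 69955 CPM on normal diet and 85903 to 102347 CPM on high salt. Alb made up most of this sum, and 2 of the 6 markers had a higher mean on high salt, whose part in the members' levels was not tested. Without normal diet libraries 1 and 2, those low in mitochondrial transcripts, the median over the members was -0.22, and the log2 fold change was -0.22 for F2, -0.26 for F10, -0.07 for F13b, -0.19 for Proz and -0.44 for Serpind1.

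The medians were close between the roles. They were -0.42 over 15 procoagulant, -0.37 over 8 anticoagulant and -0.41 over 5 fibrinolytic genes. The 7 genes of vitamin K-dependent proteins, which need a carboxylated domain to bind membranes, had a median of -0.41, with 3 at an unadjusted p under 0.05 (F7, F10 and Pros1). The 3 genes of the contact system had a median of 0.02, with F12 at 0.03, Klkb1 at 0.02 and F11 at -1.001. The 3 fibrinogen genes had a median of -0.62, which rested on normal diet library 4. Per kilobase, the highest normal diet liver levels were those of Fgg, Fga, Fgb, Plg and F2, at 1309, 962, 827, 479 and 353 CPM on average. This order depends on the exon lengths. Serpinc1, with an exon length of 8546 bases, was at 224 CPM per kilobase, but its mean CPM before division was above those of Plg and F2.

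**Figure D3:**
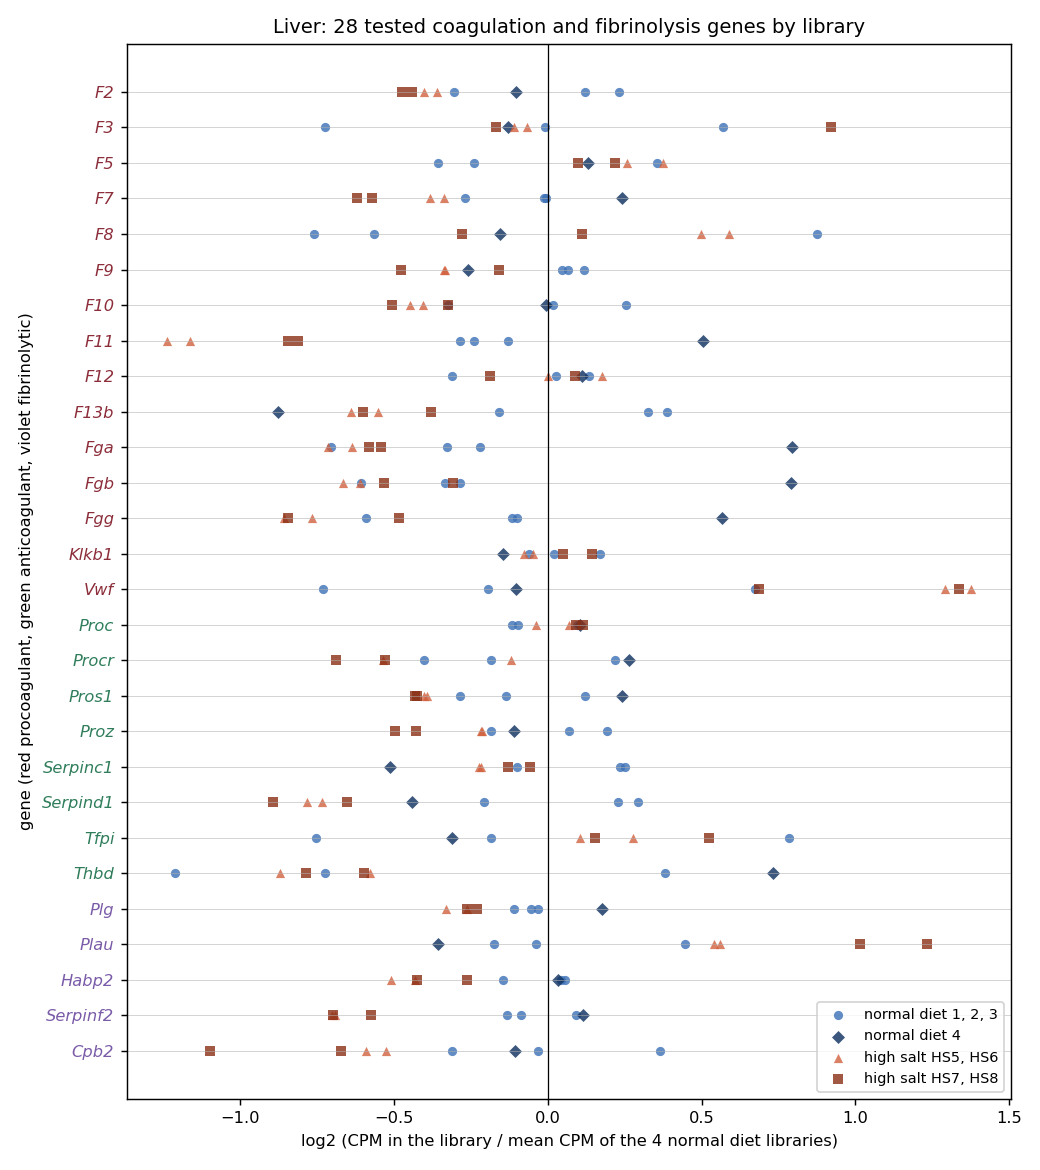
Level of each of the 28 tested members in each liver library as log2 of its ratio to the mean of the 4 normal diet libraries (x axis), with gene names coloured by role. The high salt libraries of F11, Serpind1, Serpinf2, Habp2 and Cpb2 all lie left of every normal diet library, those of Vwf and Plau lie right of them, and normal diet library 4 stands apart for Fga, Fgb, Fgg and F11.

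F11, the factor XI protease that thrombin feeds back on, had the largest log2 difference among the 28 tested members that were lower on high salt. It was at 66.3, 59.4, 61.3 and 103 CPM in normal diet libraries 1 to 4 and at 32.4, 30.7, 40.3 and 41.3 CPM in HS5 to HS8. Every high salt liver was below every normal diet liver, with 72.4 ± 20.4 (SD, n = 4) against 36.2 ± 5.41 (SD, n = 4) CPM. The log2 fold change was -1.001 (SE 0.21, edgeR adjusted p 0.0583), and -0.80 without library 4, where the adjusted p was 0.0407. Without library 3 the adjusted p was 0.0363. With HS5 and HS6 summed, neither F11 nor any other member passed the threshold. Klkb1, plasma prekallikrein, lies 4657 bases from F11 on chromosome 8 (F11 at chr8:45241174-45262031, Klkb1 at chr8:45266689-45294859, both minus strand). It was at 298, 282, 331 and 266 CPM on normal diet and 285, 279, 325 and 304 CPM on high salt, and the diets overlapped throughout. F12, factor XII, was likewise at 236 ± 31.5 and 240 ± 25.4 CPM (SD, n = 4 each).

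Among the vitamin K-dependent factors the differences were smaller. F7, factor VII, was at 81.3, 80.8, 67.7 and 96.5 CPM on normal diet and 62.6, 64.6, 54.9 and 53.1 CPM on high salt (log2 -0.47, SE 0.15, edgeR adjusted p 0.142). F10, factor X, was at 545, 463, 365 and 455 CPM and at 335, 345, 365 and 322 CPM (log2 -0.42, SE 0.17, adjusted p 0.203), with HS7 just under normal diet library 3. Pros1, protein S, was at 39.0, 35.2, 46.6 and 50.6 CPM and at 32.4, 32.6, 31.9 and 31.8 CPM (log2 -0.41, SE 0.15, adjusted p 0.167). In these 3 genes the diets did not overlap, and the high salt SD of Pros1 was 0.393 CPM. Prothrombin, at 1624 ± 263 against 1215 ± 42.1 CPM, and protein Z, at 359 ± 42.9 against 285 ± 28.6 CPM (SD, n = 4 each), did not overlap either, with edgeR adjusted p of 0.246 and 0.270. F9 had 1 normal diet library within the high salt range, and Proc, the zymogen of activated protein C, was at 350 ± 28.9 and 365 ± 17.1 CPM (SD, n = 4 each).

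Among the members, the serpins that inhibit thrombin are Serpind1 and Serpinc1. Serpind1, heparin cofactor II (chr16:17331371-17343575, plus strand), was at 825, 863, 610 and 518 CPM on normal diet and 423, 409, 448 and 379 CPM on high salt. The diets did not overlap, with a log2 fold change of -0.76 (SE 0.21, edgeR adjusted p 0.1001) and of -0.90 with an adjusted p of 0.0407 without library 4. Serpind1 did not pass the threshold with HS5 and HS6 summed. Antithrombin (Serpinc1), whose exons overlap those of Zbtb37 on the other strand, was at 2279, 2252, 1785 and 1343 CPM and at 1641, 1648, 1838 and 1750 CPM. Its high salt livers lay inside the normal diet range (log2 -0.16, SE 0.22).

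Of the 5 fibrinolytic genes tested, 4 had an unadjusted p under 0.05 (21.2% of all genes), 3 of them lower on high salt (11.3% of all genes) and Plau higher (9.83%). Serpinf2, alpha2-antiplasmin, the fast inhibitor of plasmin (chr11:75431732-75439591, minus strand), was at 709, 626, 606 and 719 CPM on normal diet and 409, 412, 410 and 446 CPM on high salt. The gap between the diets was wider than the range within either. The log2 fold change was -0.67 (SE 0.16, edgeR adjusted p 0.0755), with -0.72 to -0.63 over 22 alternative settings. The edgeR adjusted p was 0.0440 without normal diet library 3, and Serpinf2 did not pass the threshold with HS5 and HS6 summed. Cpb2 was at 333, 438, 274 and 316 CPM and at 236, 226, 214 and 159 CPM (log2 -0.71, SE 0.20, edgeR adjusted p 0.114). Habp2 was at 119, 104, 120 and 118 CPM and at 85.5, 81.0, 85.9 and 96.2 CPM (log2 -0.41, SE 0.13, edgeR adjusted p 0.146). Plasminogen itself was at 1778 ± 160 and 1473 ± 42.6 CPM (SD, n = 4 each), without overlap, at a log2 fold change of -0.27 (SE 0.18, unadjusted p 0.160). Exons of Habp2 overlap Nrap and those of Plg overlap Slc22a3, both on the other strand.

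The normal diet livers were widely spread for the fibrinogen chains. Fga was at 2483, 2309, 1774 and 5014 CPM on normal diet and 1862, 1766, 1987 and 1935 CPM on high salt. Fgb was at 2582, 2498, 2067 and 5454 CPM and at 2063, 1984, 2542 and 2179 CPM. Fgg was at 2526, 2556, 1817 and 4057 CPM and at 1609, 1510, 1958 and 1526 CPM. The diets overlapped in all 3 chains, and library 4 was 2.29-fold (Fga), 2.29-fold (Fgb) and 1.76-fold (Fgg) the mean of libraries 1 to 3. Log2 fold changes were -0.62 for Fga, -0.52 for Fgb and -0.73 for Fgg with all libraries, and -0.22, -0.13 and -0.49 without library 4. Of the 3, Fgg alone had an unadjusted p under 0.05 (0.0219, edgeR).

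Library 4 was not high for all members. Of the 28 members tested it was above libraries 1 to 3 for 11 and below them for 6, and more than 1.5 times their highest for 4. The shares over all genes were not counted, so these numbers set the members apart from no other genes. F11 was 1.65-fold and Thbd 2.13-fold the mean of libraries 1 to 3 in it, while F13b was at 0.47, Serpinc1 at 0.64 and Serpind1 at 0.68 of that mean. The same library held the acute phase genes Saa1, serum amyloid A, at 16237 CPM against 71.3 to 387 CPM in libraries 1 to 3, and Hp, haptoglobin, at 19524 CPM against 1499 to 3193 CPM. The part of the acute phase state of this library in the diet differences was not tested.

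**Figure D4:**
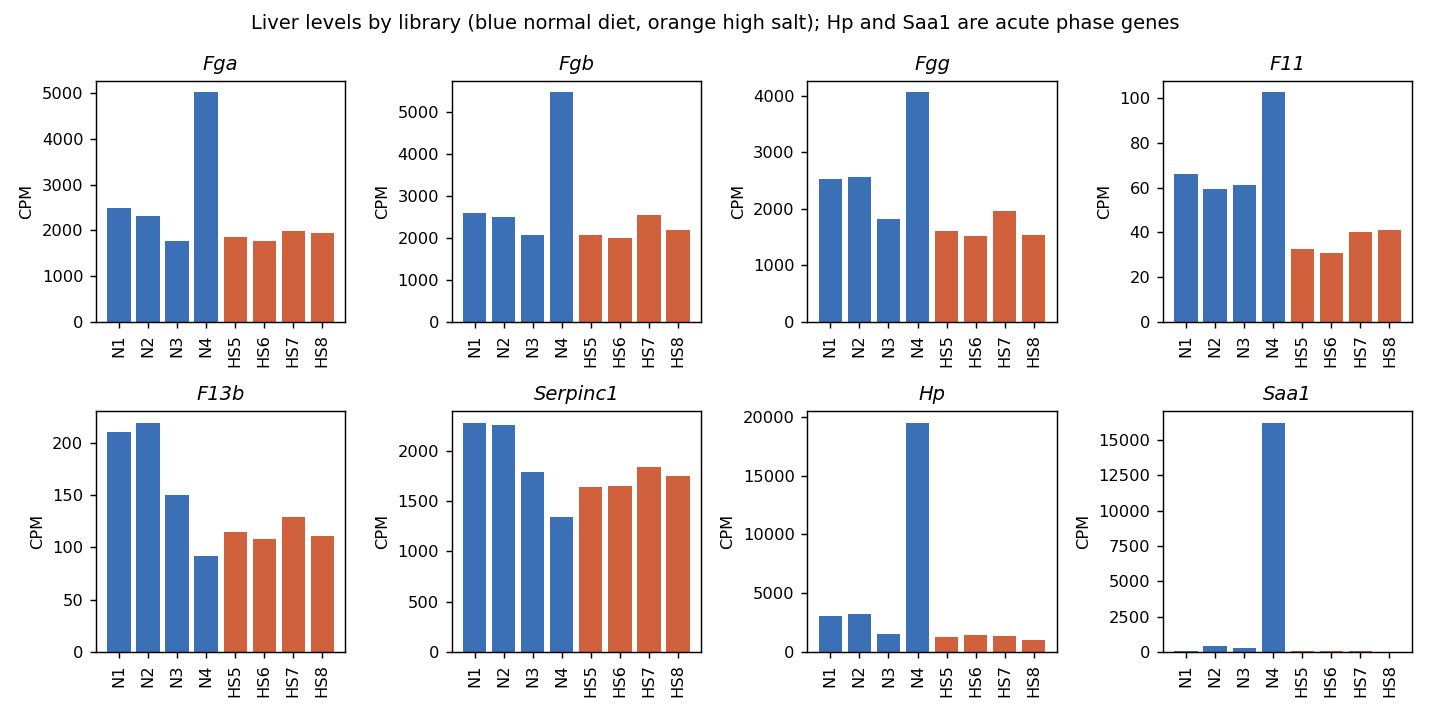
CPM (linear axes from 0) in each liver library for the fibrinogen chains, F11, F13b and Serpinc1 and for the acute phase genes Hp and Saa1. Normal diet library 4 is the highest of the 8 for Fga, Fgb, Fgg, F11, Hp and Saa1 and the lowest for F13b and Serpinc1.

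Vwf, made by endothelium, had the largest log2 difference among the tested members higher on high salt. Vwf (chr6:125546774-125686679, plus strand) was at 0.808, 1.17, 2.14 and 1.25 CPM on normal diet and 3.28, 3.48, 2.16 and 3.39 CPM on high salt. HS7 stood just above normal diet library 3, and the other high salt livers were well above all normal diet livers (log2 1.20, SE 0.32, edgeR adjusted p 0.0980, and 0.0296 without library 3). Vwf did not pass the threshold with HS5 and HS6 summed. All 7 endothelial markers had a higher mean on high salt too, and their sum was 32.8 to 81.2 CPM on normal diet and 52.7 to 93.2 CPM on high salt. Vwf as a percent of that sum was 1.96% to 3.57% on normal diet and 3.52% to 4.10% on high salt. Markers of liver sinusoidal endothelium, 3 genes, summed to 38.9 to 85.8 CPM on normal diet and 40.5 to 56.1 CPM on high salt. Of these 3, 2 had a higher mean on high salt. Platelet markers, 5 genes of the other cell type that holds von Willebrand factor, summed to 2.14 to 4.33 CPM on normal diet and 2.24 to 3.76 CPM on high salt. The part of endothelial RNA in the Vwf difference was not tested.

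Plau was at 0.880, 0.572, 0.629 and 0.505 CPM on normal diet and 0.941, 0.953, 1.52 and 1.31 CPM on high salt (log2 0.86, SE 0.30, edgeR adjusted p 0.161). Its highest livers were HS7 and HS8, which also held the most of the kidney proximal tubule markers, with sums of 7.46 and 4.34 CPM against 0.476 to 1.45 CPM in the other 6 livers. Without HS7 and HS8, the log2 fold change of Plau was 0.55. The part of kidney-type RNA in the Plau difference was not tested. F3 was at 2.12, 3.16, 1.29 and 1.95 CPM and at 1.97, 2.03, 1.89 and 4.03 CPM, and Thbd at 0.856, 1.20, 2.58 and 3.29 CPM and at 1.08, 1.33, 1.31 and 1.15 CPM. The diets overlapped in both. Plat was at 0.0315 to 0.636 CPM over the 8 livers, too low for the filter.

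The diets overlapped in the remaining liver members. F13b was at 210, 219, 150 and 91.2 CPM and at 114.2, 108, 129 and 111 CPM (log2 -0.54, SE 0.26), so that library 4 alone lay below the high salt livers. F8, whose protein speeds the activation of factor X, was at 2.78 to 8.65 CPM on normal diet and 3.89 to 7.09 CPM on high salt. F5, the cofactor of factor X, differed by 0.24 on the log2 scale, Tfpi by 0.28 and Procr by -0.45, each with an unadjusted p above 0.05. F13a1 and Plaur were at 0.0414 to 0.433 CPM and 0.0710 to 0.336 CPM over the 8 livers.

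Other genes of the pathway, 28 in all and 24 of them tested in liver, are given beside the members. By edgeR 0 passed the threshold, and 9 had an unadjusted p under 0.05 (21.2% of all genes), 8 of them lower on high salt (11.3%) and 1, Adamts13, the protease that trims von Willebrand factor, higher (9.83%). DESeq2 called 4, Hrg, Serpina10, Serpina5 and Fgl1, where it called 7.42% of all genes. Their median log2 fold change was -0.13. Hrg, histidine-rich glycoprotein, which binds plasminogen and heparin, was at 740, 735, 798 and 881 CPM on normal diet and 530, 505, 520 and 452 CPM on high salt (log2 -0.65, SE 0.16, edgeR adjusted p 0.0866). Fgl1 and Serpina10, named after their values were seen, differed by more. Fgl1, a fibrinogen-like protein secreted by the liver, was at 264, 191, 199 and 947 CPM and at 66.1, 62.1, 115.4 and 67.2 CPM (log2 -2.37, SE 0.53, edgeR adjusted p 0.0692), and -1.50 without library 4 (adjusted p 0.0338, and 0.0386 without library 3). Serpina10, the protein Z-dependent inhibitor of factor X, was at 389, 354, 254 and 639 CPM and at 147, 139.8, 215 and 135 CPM (log2 -1.36, SE 0.29, edgeR adjusted p 0.0616), and -1.07 without library 4 (adjusted p 0.0450, and 0.0276 without library 3). Library 4 was the highest of the 8 for both, and the diets did not overlap. With HS5 and HS6 summed, the edgeR adjusted p was 0.273 for Hrg, 0.238 for Fgl1 and 0.221 for Serpina10.

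In kidney, no member differed between the diets past the threshold. Of 24 members tested (F10, Serpind1 and Plg were under the filter), 0 had an adjusted p under 0.05 with edgeR, where 0.00% of 15847 genes did, and DESeq2 called 0 members, where it called 0.0694% of all genes. An unadjusted p under 0.05 was found for 3, where 2.01% of all genes had one: Proc and Procr were higher on high salt (background 1.27%) and Fgb lower (background 0.732%). The diets did not overlap for 7 members, where 6.92% of all genes did not: Vwf, Proc, Procr, Proz and Serpinc1 were higher (background 3.85%) and F13a1 and Fgb lower (background 3.07%). The log2 fold change was below 0 for 10 of 24, where it was for 53.7% of all genes. Its median was 0.03 over the members, -0.21 over 11 procoagulant, 0.32 over 7 anticoagulant and 0.03 over 6 fibrinolytic genes, and -0.02 over all genes tested.

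The protein C pathway gave both of the higher genes. Proc was at 49.9, 33.0 and 37.2 CPM in normal diet kidneys 1 to 3 and at 55.3, 53.4 and 63.5 CPM in high salt kidneys 1 to 3 (log2 0.52, SE 0.21, unadjusted p 0.0409). Procr was at 0.649, 1.17 and 0.920 CPM and at 1.38, 1.95 and 2.09 CPM (log2 0.99, SE 0.38, unadjusted p 0.0302). Neither gene overlapped between the diets, and neither survived adjustment over all genes (edgeR adjusted p 0.9996 each). Without normal diet kidney 2, the log2 fold change was 0.40 for Proc (edgeR unadjusted p 0.165) and 1.19 for Procr (0.0325). Of 17 alternative settings, 12 for Proc and 13 for Procr had an unadjusted p under 0.05. Procr is an endothelial gene, and all 7 endothelial markers had a higher mean on high salt, with sums of 146.2 to 204.4 CPM on normal diet and 201.9 to 213.7 CPM on high salt, whose part in the result was not tested. The diets overlapped in the other genes of that pathway: Thbd was at 15.6, 23.8 and 23.9 CPM and at 19.7, 22.3 and 21.6 CPM, and Pros1 at 19.7 ± 2.96 and 18.3 ± 1.09 CPM (SD, n = 3 each).

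Fgb was at 0.699, 2.11 and 0.581 CPM on normal diet and 0.581, 0.252 and 0.136 CPM on high salt, from counts of 3 to 36. The log2 fold change was -1.75 (SE 0.72, unadjusted p 0.0397), and -0.96 with an unadjusted p of 0.22 without normal diet kidney 2, the library with the most albumin transcript. Fga was at 17.6, 11.1 and 9.83 CPM and at 11.3, 15.2 and 14.05 CPM, and Fgg at 1.85, 7.09 and 4.50 CPM and at 3.97, 4.03 and 3.36 CPM, both with overlap. Vwf was at 0.450, 0.468 and 0.290 CPM and at 0.849, 0.567 and 0.636 CPM, from 6 to 19 counts (log2 0.77, SE 0.45, unadjusted p 0.126).

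Of the other members whose diets did not overlap in kidney, F13a1 was at 1.099, 0.761 and 1.26 CPM and at 0.357, 0.693 and 0.546 CPM (log2 -0.98, unadjusted p 0.0562). Proz was at 5.596, 5.45 and 5.47 CPM and at 6.61, 6.43 and 7.50 CPM, and Serpinc1 at 1.75, 2.52 and 2.76 CPM and at 3.39, 3.65 and 2.86 CPM. The diets overlapped in F2 (0.364 to 1.23 CPM over the 6 kidneys), F5 (0.849 to 4.92), F8 (5.505 to 8.44), F13b (85.9 to 182), Klkb1 (2.77 to 4.35), Tfpi (3.00 to 12.5), Plaur (0.849 to 1.41), Habp2 (55.1 to 69.5) and Cpb2 (0.761 to 1.55). Under the filter, Plg was at 0.04996 to 1.35 CPM, F10 at 0 to 0.468 CPM and Serpind1 at 0 to 1.35 CPM, each highest in normal diet kidney 2.

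The activators and tissue factor, all higher in kidney than in liver, overlapped between the diets. Plau was at 311, 283 and 306 CPM on normal diet and 241, 311 and 354 CPM on high salt (log2 0.01, SE 0.22). Plat was at 12.0, 30.6 and 32.0 CPM and at 17.4, 25.0 and 29.8 CPM (log2 -0.05, SE 0.38). F3 was at 9.69, 17.04 and 12.1 CPM and at 17.9, 12.7 and 18.8 CPM (log2 0.35, SE 0.27). Serpinf2 was at 148, 79.5 and 80.8 CPM and at 127, 128 and 136 CPM, so that normal diet kidney 1 was the highest library. Of 22 other pathway genes tested in kidney, 0 passed with edgeR and 1, Hrg, had an unadjusted p under 0.05. Hrg was at 3.85, 2.64 and 4.50 CPM and at 14.6, 11.3 and 9.46 CPM (log2 1.68, SE 0.28, unadjusted p 0.000295), and DESeq2 called it.

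**Figure D5:**
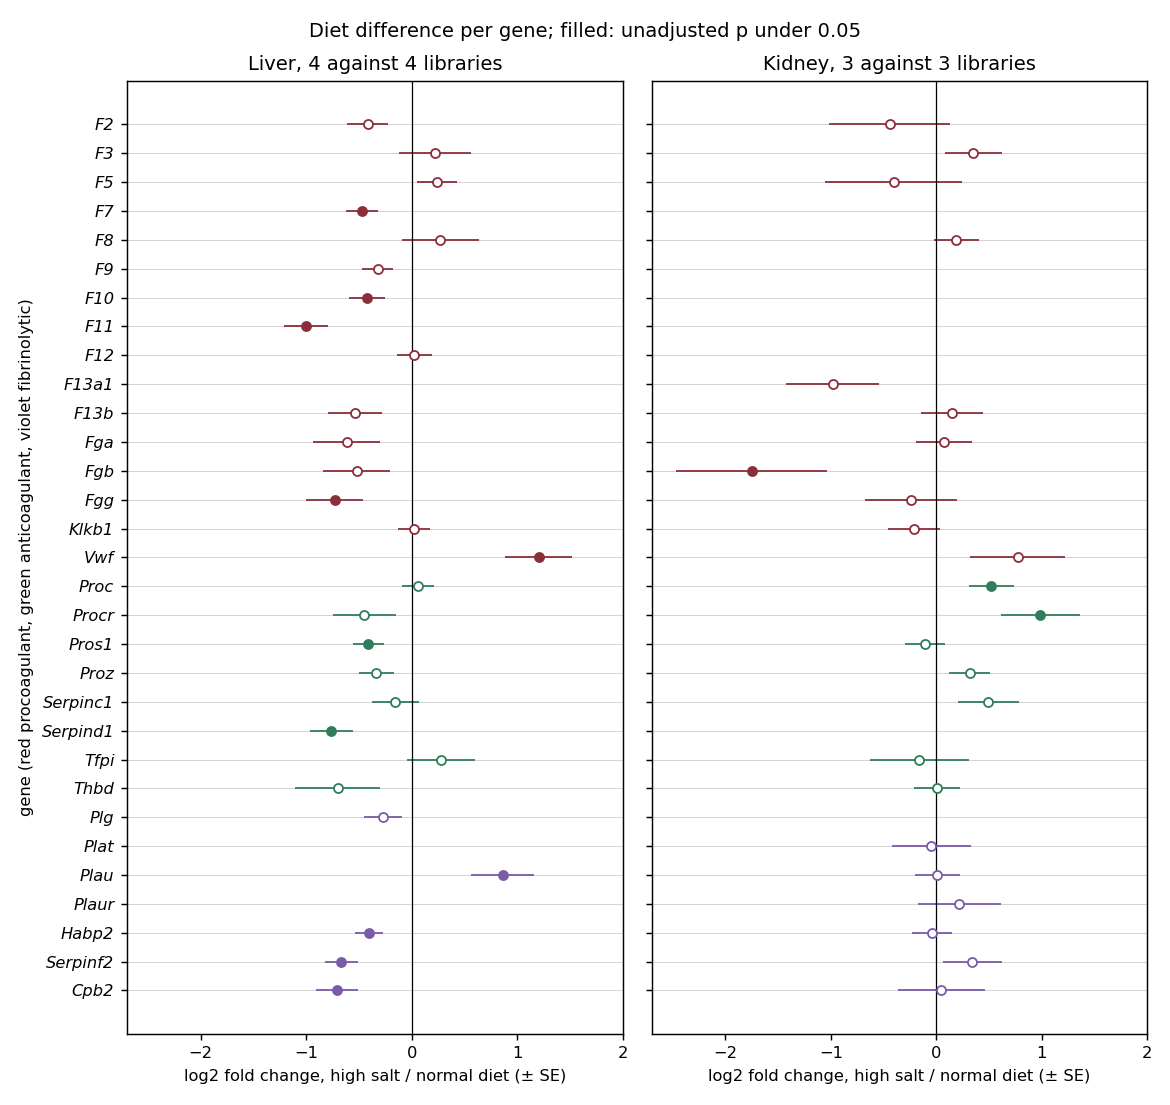
Log2 fold change of high salt over normal diet (± SE from the edgeR fit) for each member in liver (left, 28 tested) and kidney (right, 24 tested), with filled points for an unadjusted p under 0.05. Most liver points lie left of 0 with F11 at -1.001 and Vwf at 1.20, and the kidney points lie on both sides with Fgb at -1.75 and Procr at 0.99.

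The diet difference itself was compared between liver and kidney in 1 fit of all 14 libraries. Of 27 members, 0 had an adjusted p under 0.05 with edgeR, where 0.00% of 16633 genes did, and DESeq2 called 0 members, where it called 0.890% of all genes. An unadjusted p under 0.05 was found for 4, where 10.1% of all genes had one. In Procr, Serpinf2 and Proz the liver difference was the lower one (background 4.26%), and in Plau it was the higher one (background 5.85%). Written as liver minus kidney, the log2 differences were -1.42 (SE 0.47, p 0.00822) for Procr, -1.004 (SE 0.33, p 0.00867) for Serpinf2, -0.65 (SE 0.28, p 0.0334) for Proz and 0.85 (SE 0.33, p 0.0229) for Plau. Their edgeR adjusted p-values were 0.330 to 0.465. Mean Serpinf2 was 419 against 665 CPM in liver and 130 against 103 CPM in kidney, high salt against normal diet, and the difference between these differences did not pass adjustment.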

How the data were processed

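Gene-level RNA-seq values of 8 liver and 6 kidney libraries (16046094 to 51487382 counts each) were used. The authors deposited expected counts per gene and, apart, normalized values, a linear signal per gene. Per the submitters' processing notes, mm10, STAR 2.5.3a, Partek 7.0 and DESeq2 were used. Strand of counting and the kidney normalization are not given in the sources used here. Starts in the deposited tables equal GENCODE M21 for 99.4% of genes, and ends are printed as stop minus 1. Groups and columns were matched by labels. Per-sample columns left unused numbered 0.

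Rounded expected counts entered the quasi-likelihood test of edgeR 4.0.16 in R 4.3.3, with TMM scaling and filterByExpr, for diet in each tissue without a block, and for tissue and interaction over all genes in both tables. The call was an adjusted p (Benjamini-Hochberg) under 0.05. The SE is the log2 fold change over the square root of F. CPM uses TMM sizes. On simulated counts with log2 changes of 2, the fits recovered 187 of 200 changed genes in liver (14913 genes), 182 in kidney (15508 genes), 140 for the interaction (16400 genes) and 170 for tissue (15415 genes). Alternatives were RLE and upper quartile scaling, other filters, no mitochondrial genes, DESeq2 1.42.0, limma 3.58.1 (trend on log2 of the normalized signal, and voom with sample weights), joint fits, and libraries left out or summed. Leaving out HS7 and HS8, or normal diet livers 3 and 4, was chosen after seeing the data.

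Members and lists were chosen with earlier results of these data known. Values per library are given for members with an unadjusted p under 0.05 in a diet test and for the fibrinogen genes, F3, Thbd, Plat, Plau and Vwf. Of the other pathway genes, those past the threshold and Hrg are named by rule, and 1 further gene of the rule is not reported here. Other members and marker genes are named where a value bears on these. Promoters are from RefSeq (GRCm38.p6).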

Additional observations from a re-analysis of the deposited data

Results flagged for a closer look

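Of 62 groups of 4 liver libraries checked, 8 held 1 library far from the other 3, where chance gives about 3.1. In normal diet library 4, F11 was at 102.7 CPM against 59.4 to 66.3 CPM in the others, Fgb at 5454 CPM against 2067 to 2582 CPM, and Plaur at 0.336 CPM against 0.136 to 0.157 CPM. In normal diet library 2, Habp2 was at 104.4 CPM against 118.2 to 120.1 CPM. In HS8, F3 was at 4.03 CPM against 1.89 to 2.03 CPM, and Serpinf2 was at 446.5 CPM against 408.6 to 411.8 CPM. In HS7, Vwf was at 2.16 CPM against 3.28 to 3.48 CPM. In HS6, F13a1 was at 0.0414 CPM against 0.0831 to 0.0888 CPM. Plaur and F13a1 rest on mean counts of 7.5 and 4.0 per library.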

How the results depend on the processing

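The number of liver members with an adjusted p under 0.05 was 0 and became 8 with DESeq2, 19 with voom and sample weights, 1 with the authors' normalized values at a pseudocount of 1, and 17 with normal diet libraries 3 and 4 left out. It was 0 with normal diet libraries 1 and 2 left out and 0 with HS5 and HS6 summed. Leaving out 1 library at a time gave 0 to 3: without library 3 F11, Serpinf2 and Vwf passed, and without library 4 F11 and Serpind1. The cause was not tested. The number at an unadjusted p under 0.05 was 11 and became 21 with voom, 5 without HS7 and HS8 and 18 without libraries 3 and 4, 12 without libraries 1 and 2, with 9 to 16 when 1 library was left out and 9 with HS5 and HS6 summed. The median liver log2 fold change stayed between -0.41 and -0.22. In kidney, the count past the threshold was 0 in all 17 alternatives. The count at an unadjusted p under 0.05 was 3 and became 5 in the fit of all 14 libraries, 5 with voom and 0 to 5 with 1 library left out (5 without normal diet library 1, 0 without high salt library 2 or 3). The interaction gave 0 past the threshold in all 22 alternatives, and tissue gave 16 to 24 of its members in 15. The log2 ratio for F8 in tissue comparisons changed sign from 0.06 to -0.0376 under RLE, -0.0375 under DESeq2, -0.23 under upper quartile scaling, -0.20 with at least 10 counts in every library, -0.0245 without mitochondrial genes, -0.0781 with the replicate block, and -0.41 (without liver library 3) to 0.23 with 1 library left out.

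No paired analysis was possible in liver because the high salt columns match no numbered title. In kidney and between tissues, the labels do not say that a replicate number marks a shared animal. Deviations of same-numbered kidney libraries correlated at 0.61, 0.62 and -0.19, and those of differently numbered ones at -0.68 to 0.62. With 3 libraries per diet, these values cannot decide whether the samples are paired. With the replicate block, kidney gave 0 past the threshold and 3 at an unadjusted p under 0.05, and tissue gave 24. Depth limits Plat, Plaur and F13a1 in liver and F10, Plg, Serpind1, Vwf and Fgb in kidney, whose levels rest on few counts.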
